A study of Mus musculus with 11 samples.

Results

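The coreceptor genes Cd4, Cd8a and Cd8b1 define the CD4+ CD8+ stage of thymocyte development, and their loci were described here from peaks of acetylated lysine on histone H3 (H3K27ac) and of the cohesin subunit Smc1a. Members were all called peaks on chromosome 6 (build mm9) that touched the window from 71.24 to 71.37 Mb, which holds Cd8a and Cd8b1, or the window from 124.76 to 124.88 Mb, which holds Cd4 and its neighbours. The 6 peak lists held 146 such peaks of 120616 in all, with 73 in the H3K27ac lists and 73 in the Smc1a lists. The Cd8 window held 95 of them and the Cd4 window 51.

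H3K27ac was mapped by chromatin immunoprecipitation and sequencing in 2 KO libraries and 2 WT libraries, and Smc1a in 2 WT libraries. All libraries were made in CD4+ CD8+ thymocytes sorted from mice that were 6 weeks old. KO cells, labelled Rad21 -/-, came from mice in which a floxed Rad21 allele was combined with a Cre transgene driven by Cd4. WT cells, labelled wild type, came from control littermates, and the labels do not say whether these carried Cre or a floxed allele. Cre was therefore driven by sequence of a gene described here, and the sources do not say which Cd4 sequence the transgene holds, so reads of transgene and locus cannot be told apart. Remaining Rad21 was not measured in these files. Whether replicate libraries stem from different mice is not stated, so p-values measure only the spread between these samples, which may be technical.

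CD4 and CD8 are the coreceptors that bind class II and class I major histocompatibility molecules beside the T cell receptor and bring the kinase Lck to it. CD8 on thymocytes is a dimer of an alpha chain, from Cd8a, and a beta chain, from Cd8b1. The adjacent Cd8 genes are controlled by several enhancers used at different stages, and Cd4 by a proximal enhancer and an intronic silencer bound by Runx factors. H3K27ac marks active promoters and enhancers. Cohesin is a ring that holds stretches of chromatin in loops, with Smc1a as one of its long arms and Rad21 as the subunit that closes it.

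In the RefSeq gene order of GRCm38.p6, Cd8b1 lies next to Cd8a, with Gm1070 on the far side of Cd8b1 and Rmnd5a on the far side of Cd8a. Cd4 lies between Gpr162 and Lag3. That annotation is of another build than the peaks, so genes, exons and introns were not placed on the mm9 coordinates, and no peak was assigned to a gene start. The promoter of Cd8a, from 250 bases before to 50 bases after the start site, is shown as that of the 1 coreceptor gene of 3 that matched the promoter table. It is RefSeq sequence of GRCm38.p6, plus strand, chr6:71373177-71373476, a position that cannot be set against the mm9 peaks.
Cd8a promoter: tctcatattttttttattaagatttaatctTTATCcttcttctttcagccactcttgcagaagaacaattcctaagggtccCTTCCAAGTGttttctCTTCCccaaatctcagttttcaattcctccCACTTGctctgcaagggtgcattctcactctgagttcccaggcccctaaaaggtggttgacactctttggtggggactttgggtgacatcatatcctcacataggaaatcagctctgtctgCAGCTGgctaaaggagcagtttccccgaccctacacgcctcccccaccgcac
Capitals mark matches on either strand to an E-box (CANNTG, 3 matches), a GATA motif (GATAA, 1 match) and an ETS core (GGAAG, 2 matches). The E-box at bases 86 to 91 shares 1 base with the ETS core at bases 82 to 86. For a RUNX core only the letters TGTGGT were searched, and these are not in this stretch. Other spellings of the core were not searched, so the stretch is not shown to lack a RUNX core. Of 32851 RefSeq promoters of the same length, 72.3% held the E-box, 25.4% the GATA motif, 71.4% the ETS core and 16.8% the RUNX core.

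The H3K27ac lists held 15686 to 21973 peaks covering 45.6 to 56.3 Mb, and the Smc1a lists 25484 and 17726 peaks. The score of a peak is the authors' own value from their caller. It ran from a floor of about 50 to a crowded ceiling near 3100 in the H3K27ac lists, and it is used here to describe peaks within a list. The files hold no reads, so depth is unknown, and where a list has no peak the acetylation was not called, which does not show that it was absent. Nearly touching peaks were often split in one list and joined in another, so covered length and merged regions were the main measures. Peak numbers of the windows are given beside them and carry that limit.

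Both coreceptor windows were acetylated in all 4 libraries, and the Cd8 window was covered far more densely than the Cd4 window. Peaks covered 96910 and 90183 bp of the Cd8 window in KO libraries, against 99943 and 101424 bp in WT libraries. Peaks covered 39066 and 32752 bp of the Cd4 window in KO libraries, against 50870 and 43787 bp in WT libraries. In each window both KO values lay below both WT values.

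The Cd8 window averaged 93546.5 ± 4756.7 bp in KO and 100683.5 ± 1047.2 bp in WT libraries (SD, n = 2 each), so KO coverage was 92.9% of WT coverage, a difference of -7137.0 bp. The Cd4 window averaged 35909.0 ± 4464.7 bp in KO and 47328.5 ± 5008.4 bp in WT libraries (SD, n = 2 each), so KO coverage was 75.9% of WT coverage, a difference of -11419.5 bp. The gap between genotypes exceeded the SD of either group in both windows. Each gave p = 0.333 in a two-sided exact permutation test over the 4 libraries, which is the smallest p that 2 libraries against 2 allow, and 0.500 after Benjamini-Hochberg adjustment over the 6 tests made on these windows. At the Cd8 window 1 library set most of the size, since the difference was -3773.5 bp without KO replicate 2 and -10500.5 bp without KO replicate 1. At the Cd4 window it was -7535.5 bp when the 75% of each list with the highest scores was kept.

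The lists differed in total covered length, so each window was also taken as a share of its library. The Cd8 window held 0.184% and 0.190% of covered length in KO libraries, against 0.178% and 0.222% in WT libraries. These groups overlapped (exact permutation test, p = 1, n = 2 each), and the mean difference of -0.0132 percentage points became 0.0092 without WT replicate 2, -0.0357 without WT replicate 1 and -0.0075 with equal numbers of peaks per list. The Cd4 window held 0.0742% and 0.0688% in KO libraries, against 0.0904% and 0.0960% in WT libraries. Its groups did not overlap, with a mean difference of -0.0217 percentage points (exact permutation test, p = 0.333, n = 2 each). Of tiles of 120000 bp with a peak of each H3K27ac library, 17.7% had both KO below both WT shares, and 60.0% of those covered over at least 25%. Peak numbers were 11 and 11 in KO against 11 and 8 in WT libraries at the Cd8 window, where the groups overlapped (exact permutation test, p = 1). They were 6 and 7 in KO against 11 and 8 in WT libraries at the Cd4 window, where they did not (exact permutation test, p = 0.333). Of the same tiles 4.47% had both KO below both WT in peak number, and 17.9% of those covered over at least 25%. At the Cd4 window the count of 8 includes a WT replicate 2 peak with 447 bp inside the window edge. The KO and WT replicate 1 peaks of that region began outside it. Without that WT peak the peak numbers of the groups would overlap, so this order depends on where the edge was set.

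**Figure D1:**
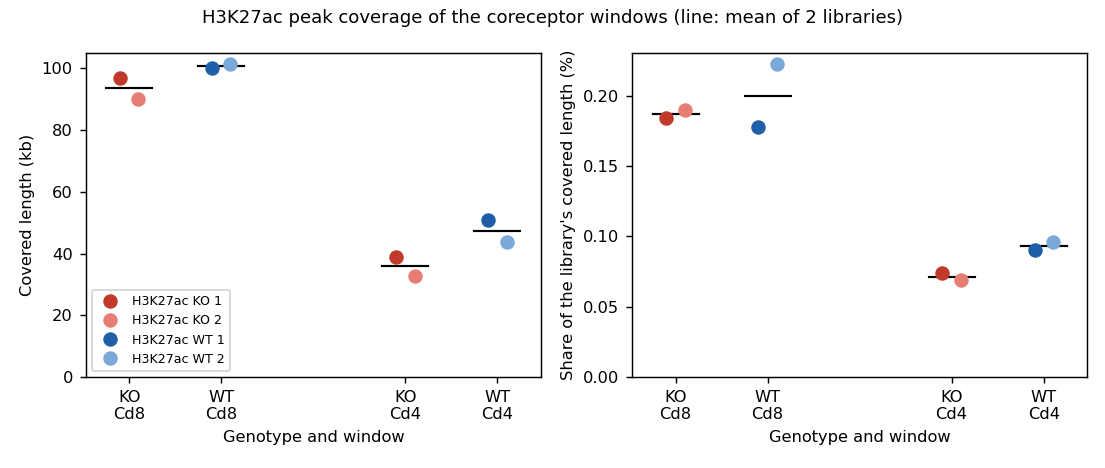
Covered length in kb (left) and share of the library's covered length in percent (right) of the Cd8 and Cd4 windows, with 1 point for each H3K27ac library and a line at the mean of 2 libraries. Both KO points lie below both WT points in covered length at each window, and in share at the Cd4 window, while at the Cd8 window the shares of 0.184% and 0.190% in KO lie between the WT shares of 0.178% and 0.222%.

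Lower KO coverage was common among densely acetylated tiles of the genome. Of 5769 tiles of 130000 bp that held a peak of each H3K27ac library, 17.3% had both KO below both WT libraries in covered length and 22.0% had the reverse. Among the 172 tiles covered over at least 25%, 59.9% had both KO below both WT and 1.74% the reverse. For 120000 bp tiles the shares were 17.9% and 21.6% of 5968 tiles, and 64.1% and 1.54% of the 195 dense ones. The direction seen at both coreceptor windows was thus the common one among densely acetylated tiles.

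The size of the difference also lay within the usual range of such tiles. The median dense tile had KO coverage of 84.9% of WT coverage at the Cd8 tile size, with the middle 50% of tiles from 76.6% to 93.7%, against 92.9% at the Cd8 window. At the Cd4 tile size the median was 83.9%, with the middle 50% from 74.97% to 93.1%, against 75.9% at the Cd4 window. None of the 5769 tiles of 130000 bp was covered more densely than the Cd8 window, and 75 of the 5968 tiles of 120000 bp were covered more densely than the Cd4 window. Tiles were laid on a fixed grid and cut through loci, while the windows were laid around genes.

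**Figure D2:**
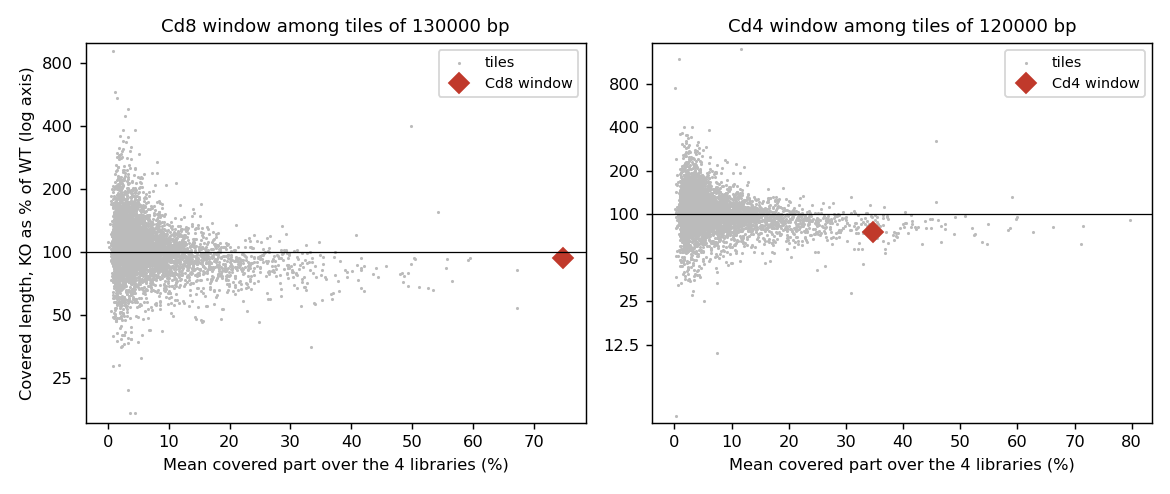
KO coverage as a percentage of WT coverage (log axis) against the mean covered part over the 4 libraries in percent, for tiles of 130000 bp (left) and 120000 bp (right), with 1 grey point for each tile and a diamond for the coreceptor window. The Cd8 window lies at the dense end with KO at 92.9% of WT, and the Cd4 window lies among dense tiles with KO at 75.9% of WT.

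Libraries placed their peaks on nearly the same bases at the Cd8 window. The Jaccard index, the shared part of the bases covered by either of 2 libraries, was 0.883 to 0.967 between genotypes, 0.904 between the KO libraries and 0.946 between the WT libraries. At the Cd4 window it was 0.640 to 0.746 between genotypes, below the 0.788 between the KO libraries and the 0.784 between the WT libraries. Over the genome it was 0.637 to 0.723 between genotypes, 0.738 between the KO libraries and 0.670 between the WT libraries. The Cd8 window and the genome are not alike in setting. Each library covered 69.37% to 78.02% of that window, and such dense coverage leaves less room for libraries to differ. The index was not taken for other dense tiles.

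Overlapping peaks of the 4 H3K27ac lists merged into 9 regions at the Cd8 window and 11 at the Cd4 window, numbered here from low to high coordinates. In the Cd8 window 7 of 9 regions were called in all 4 libraries, and in the Cd4 window 5 of 11, against 49.6% of 24430 regions in the genome. No region of either window had a KO peak without a WT peak, against 11.2% of regions in the genome. Of the 15 regions called in both WT libraries, 2 lacked a peak in KO replicate 1 (6.32% in the genome) and 3 lacked one in KO replicate 2 (8.96% in the genome). The 2 that lacked both KO peaks (4.17% in the genome) were in the Cd4 window, and 3 of 15 lacked at least 1 KO peak (11.1% in the genome). Without WT replicate 1, 2 regions of the Cd4 window had a KO peak and no WT peak. Without WT replicate 2, the regions with a WT peak that lacked a KO peak numbered 2 at the Cd8 window and 5 at the Cd4 window. With peaks within 1000 bp merged, none lacked one at either window.

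**Figure D3:**
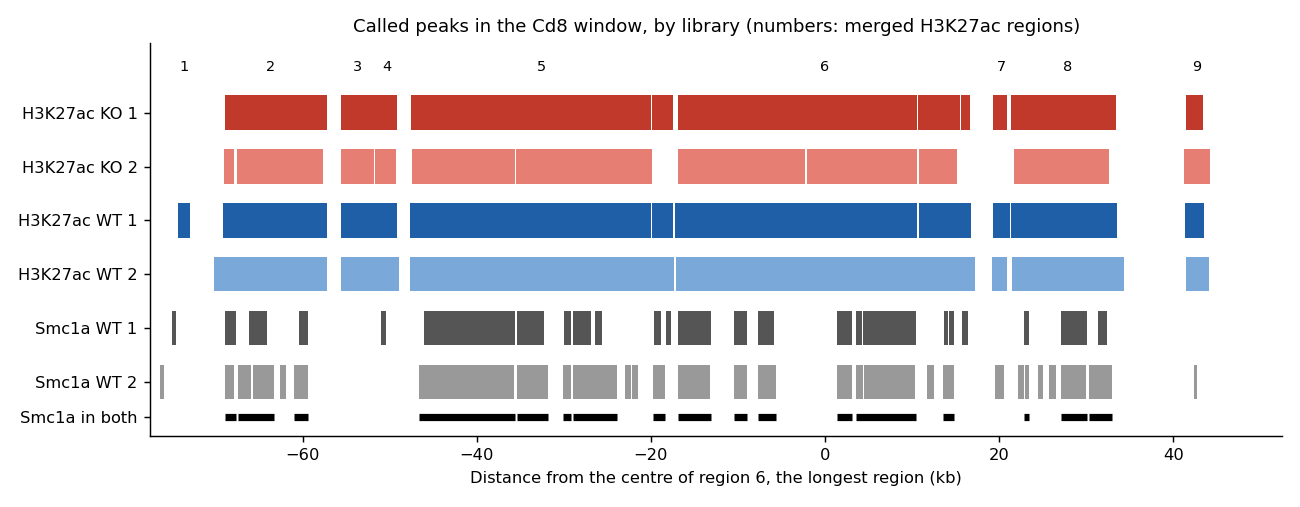
Called peaks of the 2 KO and 2 WT H3K27ac libraries and of the 2 Smc1a libraries in the Cd8 window, against distance in kb from the centre of region 6, with black bars for Smc1a sites called in both replicates and numbers for merged H3K27ac regions. Regions 2, 5, 6 and 8 form wide blocks in every H3K27ac library, and KO replicate 2 lacks region 7 and the right end of region 5.

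The Cd8 window held 2 of the longest acetylated regions of the series. Region 6 of the Cd8 window, from 71300308 to 71334652 (34345 bp), was the 21st longest of the 12129 regions called in all 4 libraries. Region 5, from 71269822 to 71300126 (30305 bp), was the 31st longest, and 181 bp separated them. The median region called in all 4 libraries was 2922 bp long in the genome and 12924 bp in the Cd8 window.

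Region 6 had 33242 and 31692 bp under peaks in KO libraries, against 33691 and 34286 bp in WT libraries. Region 5 had 29988 and 27509 bp under peaks in KO libraries, against 30093 and 30305 bp in WT libraries. Every list had a peak at 3100 in both regions, and in each region both KO libraries covered less than both WT libraries, with KO at 95.5% of WT for region 6 and 95.2% for region 5. The lists cut these stretches differently, since region 6 was 3 peaks in each KO list, against 2 peaks in WT replicate 1 and 1 peak in WT replicate 2.

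Region 2 (71247287 to 71260323) had 11764 and 10949 bp under peaks in KO libraries, against 12008 and 13018 bp in WT libraries. Region 8 (71338833 to 71351756) had 12072 and 10810 bp under peaks in KO libraries, against 12119 and 12831 bp in WT libraries. Both reached 3100 in every list, and in both the KO libraries lay below the WT libraries, at 90.8% of WT for region 2 and 91.7% for region 8.

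Regions 3, 4 and 9, the shorter ones called in all 4 libraries at the Cd8 window, had KO coverage of 93.6% to 100.8% of WT coverage. Region 3 (71261875 to 71265779) had 3901 and 3799 bp under peaks in KO libraries, against 3879 and 3895 bp in WT libraries. Region 4 (71265820 to 71268511) had 2451 and 2423 bp under peaks in KO libraries, against 2523 and 2686 bp in WT libraries. Region 9 (71358664 to 71361664) had 1865 and 3001 bp under peaks in KO libraries, against 2158 and 2670 bp in WT libraries. The groups overlapped in regions 3 and 9 and not in region 4.

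In the Cd8 window, 1 region was lost in a KO library. Region 7 (71336694 to 71338716) had 1627 bp under a peak in KO replicate 1 and no peak in KO replicate 2, against 2005 and 1733 bp in WT libraries. It was a weak call where present, with scores of 124.46 in KO replicate 1, 123.93 in WT replicate 1 and 171.25 in WT replicate 2. Region 1, from 71243140 to 71244606, was called in WT replicate 1 alone (score 73.48), as were 10.5% of regions in the genome. No region of either window was called in WT replicate 2 alone, against 2.21% in the genome. KO replicate 2 also stopped short in region 5, where its last peak ended at 71297594, against 71300028 in KO replicate 1 and 71299990 and 71300126 in WT libraries.

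**Figure D4:**
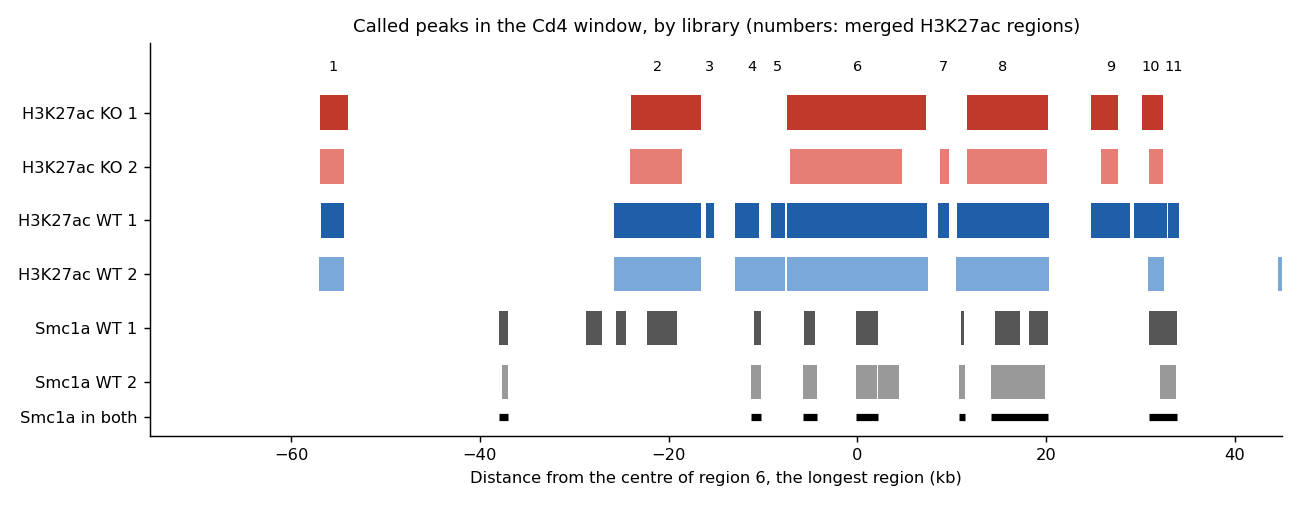
Called peaks of the 2 KO and 2 WT H3K27ac libraries and of the 2 Smc1a libraries in the Cd4 window, against distance in kb from the centre of region 6, with black bars for Smc1a sites called in both replicates and numbers for merged H3K27ac regions. Regions 4 and 5 have WT peaks and no KO peak, and the left edges of regions 2 and 8 start further right in both KO libraries.

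The Cd4 window held shorter blocks, and 2 of its regions had WT peaks alone. Its longest region, region 6 from 124827453 to 124842429 (14977 bp), was the 195th longest of those called in all 4 libraries. It was covered over 14756 and 11944 bp in KO libraries, against 14792 and 14916 bp in WT libraries. In covered length KO replicate 1 was close to the WT libraries there. KO replicate 2 ended at 124839700, against 124842208 in KO replicate 1 and 124842308 and 124842429 in WT libraries. By score KO replicate 1 was the lowest, at 2100.75, against 3100 in KO replicate 2 and both WT libraries.

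Region 2 (124809191 to 124818404) had 7435 and 5502 bp under peaks in KO libraries, against 9214 and 9189 bp in WT libraries. Region 8 (124845441 to 124855212) had 8684 and 8510 bp under peaks in KO libraries, against 9655 and 9772 bp in WT libraries. Neither overlapped between genotypes, with KO at 70.3% of WT for region 2 (6468.5 ± 1366.8 bp in KO and 9201.5 ± 17.7 bp in WT, SD, n = 2 each) and 88.5% for region 8 (8597.0 ± 123.0 bp in KO and 9713.5 ± 82.7 bp in WT, SD, n = 2 each). All lists held a peak at 3100 in these 2 regions.

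Regions 4 and 5 of the Cd4 window had WT peaks and no KO peak. Region 4 (124821934 to 124825637) had 0 and 0 bp under peaks in KO libraries, against 2591 and 3671 bp in WT libraries. Region 5 (124825655 to 124827254) had 0 and 0 bp under peaks in KO libraries, against 1459 and 1594 bp in WT libraries. They lie side by side, 17 bp apart, and region 5 ends 198 bp before region 6. All 4 WT peaks were weak, with scores of 82.28 and 175.90 in region 4 and 89.39 and 56.10 in region 5. With only the 75% of each list with the highest scores, or with equal numbers of peaks per list, no region of the Cd4 window was called in both WT libraries and missing from a KO library.

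Other regions of the Cd4 window did not follow genotype. Region 9 (124859687 to 124863891) had 2929 and 1792 bp under peaks in KO libraries, against 4188 bp in WT replicate 1 and no peak in WT replicate 2. Region 10 (124864294 to 124867728) had 2296 and 1493 bp under peaks in KO libraries, against 3435 and 1598 bp in WT libraries. Region 1 (124777885 to 124780927) had 2966 and 2504 bp under peaks in KO libraries, against 2405 and 2600 bp in WT libraries. The groups overlapped in each of these regions.

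The weakest calls of the Cd4 window were held by few libraries. Region 7, from 124843491 to 124844692, had a peak in KO replicate 2 (score 61.07) and in WT replicate 1 (61.82). Regions 3 and 11 were called in WT replicate 1 alone, with scores of 55.94 and 98.25. A peak of WT replicate 2 from 124879554 to 124883406 crossed the upper edge of the window and covered 447 bp inside it. The KO and WT replicate 1 peaks of the same region began outside the window, so it was counted with no region.

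**Figure D5:**
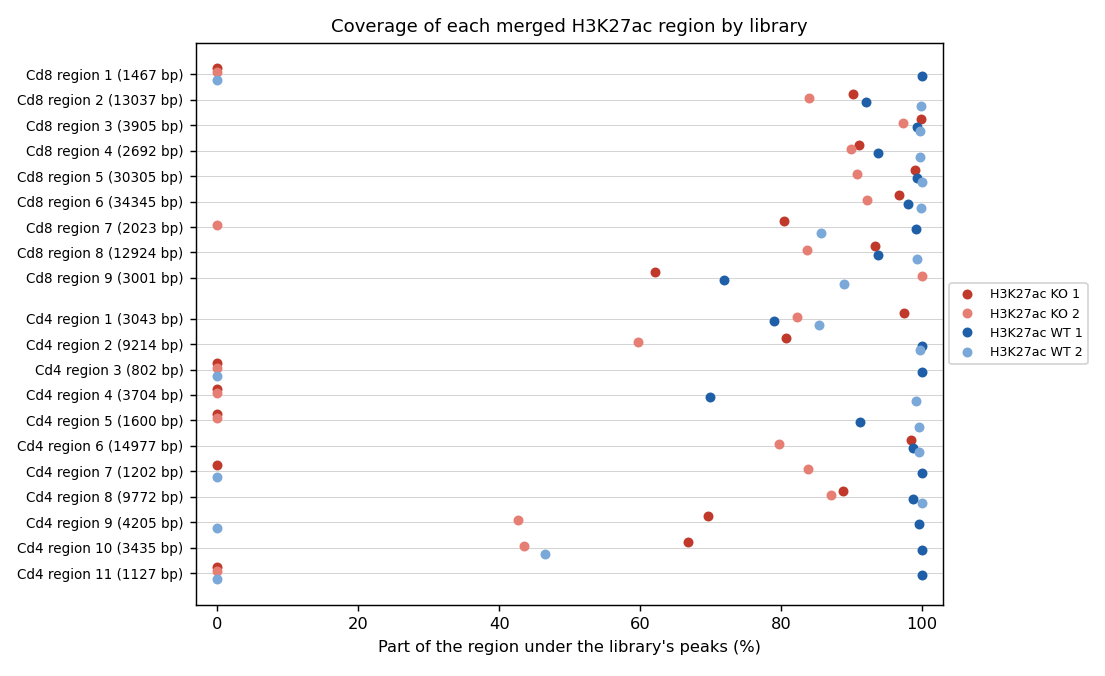
Part of each merged H3K27ac region under a library's peaks in percent, with 1 point for each of the 2 KO and 2 WT libraries and region lengths in bp beside the names. KO points lie left of WT points in the longest regions, at 95.5% of WT coverage for region 6 of the Cd8 window and 70.3% for region 2 of the Cd4 window, and at 0 in regions 4 and 5 of the Cd4 window.

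Of the 12 regions called in all 4 libraries, 8 had both KO libraries below both WT libraries in covered length, none had the reverse, and 4 overlapped. At the Cd4 window 3 of 5 had this order, and without WT replicate 2 it was 5 of the 6 called in the other libraries. In the genome 22.9% of such regions had both KO below and 17.4% both KO above. Among the 706 that were at least 9000 bp long the shares were 48.2% and 7.37%, and 7 of the 12 coreceptor regions were of that length. All 7 had both KO libraries below both WT libraries. In some of them KO replicate 1 lay only just below WT replicate 1, and KO replicate 2 set most of the difference. The 2 values were 14756 and 14792 bp in region 6 of the Cd4 window, and 12072 and 12119 bp in region 8 of the Cd8 window. In region 2 of the Cd4 window they were further apart, at 7435 and 9214 bp. Length was that of the merged region, here and in the genome. Regions 2 and 8 of the Cd4 window reached 9000 bp in WT libraries alone, so the limit itself favoured this order for them.

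Shared regions were often narrower at their edges in KO libraries. Of 24 region edges, 12 lay further inward in each KO library than in each WT library, none lay further outward and 12 overlapped. In the genome 20.7% of edges lay inward and 17.2% outward, over regions of every length. No share was taken for edges of long regions alone. Among regions of at least 9000 bp, both KO below both WT in covered length was more common, at 48.2%. The largest mean inward shift of the 24 was at the left edge of region 2 of the Cd4 window, where KO peaks started at 124810956 and 124810869, against 124809191 and 124809200 in WT libraries, a mean shift of 1717.0 bp. At the left edge of region 8 of the Cd4 window KO peaks started at 124846517 and 124846566, against 124845558 and 124845441 in WT libraries, a mean shift of 1042.0 bp. At the Cd8 window the 7 inward edges moved by a median of 271.5 bp, with mean shifts from 11.5 to 1021.0 bp. At the Cd4 window the 5 inward edges moved by a median of 1042.0 bp, with mean shifts from 74.5 to 1717.0 bp. Some edges counted as inward were separated by only a few bases. At the left edge of region 4 of the Cd8 window KO replicate 1 started at 71265829 and WT replicate 2 at 71265826.

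Counted by single bases, 85.6% of the bases covered at the Cd8 window were covered in all 4 libraries and 55.5% at the Cd4 window, against 49.5% in the genome. The genome is covered far less densely than the Cd8 window, and these shares were not taken for dense tiles. Bases covered in both WT and neither KO library were 882 bp (0.85%) at the Cd8 window and 6764 bp (12.6%) at the Cd4 window, against 3.50% in the genome. Bases covered in both KO and neither WT library were 0 bp at both windows, against 2.89% in the genome. Bases that KO replicate 2 alone lacked were 7871 bp (7.59%) at the Cd8 window and 5032 bp (9.40%) at the Cd4 window, against 5.63% in the genome.

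Smc1a was mapped in WT cells alone, so it places cohesin in undeleted cells and gives no comparison of genotypes. Merged Smc1a peaks formed 17 sites called in both replicates at the Cd8 window and 7 at the Cd4 window. No 130000 bp tile held more bases of such sites than the 52323 bp of the Cd8 window, and 19 of the 120000 bp tiles held more than the 15361 bp of the Cd4 window. These ranks are over the 6898 and 7160 tiles that held such a site, acetylated or not. Among tiles with a peak of each H3K27ac library the median held 1282 and 1190 bp at these sizes, and among those covered over at least 25% it held 8575 and 7477 bp. Neighbouring sites lay a median of 2020.5 bp apart at the Cd8 window and 6528.0 bp apart at the Cd4 window, against 45194 bp in the genome.

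The sites were long as well as close. The median site was 2108 bp at the Cd8 window and 1493 bp at the Cd4 window, against 773 bp for 14848 sites in the genome. Of the 100 longest sites in the genome, 6 lay in the Cd8 window and 1 in the Cd4 window. The site from 71270846 to 71281829 (10984 bp), inside region 5 of the Cd8 window, was the longest of all. The site from 71321039 to 71327910 (6872 bp), inside region 6 of the Cd8 window, was the 7th longest. In the Cd4 window the longest site, from 124849161 to 124855126 (5966 bp), was the 14th longest and lay inside region 8.

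The longest site was not among the highest scoring. The longest site scored 521.54 and 222.07 in the Smc1a lists, or the 85.74 and 74.97 percentiles. The site from 71321039 to 71327910 scored 1031.51 and 1948.11, the 96.86 and 99.95 percentiles. The site from 71344560 to 71347542, inside region 8 of the Cd8 window, scored 1032.43 and 1475.72, the 96.9 and 99.8 percentiles. The site from 71300605 to 71304340, at the left end of region 6 of the Cd8 window, scored 920.49 and 1641.70, the 95.6 and 99.9 percentiles. Sites above the 90 percentile of both lists numbered 6 at the Cd8 window and 1 at the Cd4 window.

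Nearly all sites of the Cd8 window lay in acetylated chromatin of both genotypes. Of 17 sites, 16 overlapped peaks of all 4 H3K27ac libraries and 13 were wholly covered in each, against 19.3% of sites in the genome that overlapped peaks of all 4. The 2 shares are not alike in setting. H3K27ac peaks covered 69.37% to 78.02% of the Cd8 window in each library, while 72.5% of sites in the genome overlapped no H3K27ac peak. The exception, from 71297748 to 71299086 in region 5, was wholly covered in KO replicate 1 and both WT libraries and not at all in KO replicate 2. Sites fell in regions 2, 5, 6 and 8, the 4 regions at the score ceiling in every list, and took up 47.7% to 72.1% of their length. Regions 1, 3, 4, 7 and 9 held no site called in both replicates. Over both windows, 7 of the 12 regions called in all 4 libraries held such a site, against 20.3% in the genome. Of the 7 that were at least 9000 bp long, 6 held one, against 66.1% in the genome, and the exception was region 2 of the Cd4 window.

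At the Cd4 window 4 of 7 sites overlapped peaks of all 4 H3K27ac libraries, and 2 overlapped peaks of both WT and neither KO library. In the genome 0.815% of all sites did the latter, a share that also counts the many sites outside acetylation. The remaining site, from 124797010 to 124797913, lay in no H3K27ac peak, as did 72.5% of sites in the genome. It scored 1020.14 and 443.00, above the 90 percentile of both lists, and lay 11277 bp from the nearest acetylated peak. The sites from 124829140 to 124830632 and from 124834793 to 124837103 lay inside region 6 and were wholly covered in all 4 libraries. The site from 124865832 to 124868803 ran across regions 10 and 11 and was covered over 52.2% and 50.2% in KO libraries, against 95.5% and 52.6% in WT libraries.

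The 2 sites with WT acetylation alone were weak Smc1a calls. The site from 124823621 to 124824740, in region 4 of the Cd4 window, scored 61.82 and 152.79 (the 11.6 and 61.4 percentiles). It was covered over 0% and 0% in KO libraries, against 80.7% and 100% in WT libraries. The site from 124845761 to 124846355, at the left end of region 8, scored 88.95 and 72.54 (the 28.7 and 26.0 percentiles). It was covered over 0% and 0% in KO libraries, against 100% and 100% in WT libraries.

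These sites fell in strips that WT libraries covered and KO libraries did not. The Cd4 window held 4 strips of at least 500 bp covered in both WT and neither KO library, and neither window held a strip of that length covered in both KO and neither WT library. Of 2609 genome strips covered in both libraries of 1 genotype alone, 58.5% were of the WT kind. The 4 strips were the left end of region 2 (1669 bp), most of region 4 (2558 bp) and of region 5 (1453 bp), and the left end of region 8 (959 bp). A Smc1a site called in both replicates overlapped 2 of the 4 strips, against 9.31% of 1525 such strips in the genome. Of 1084 genome strips covered in both KO and neither WT library, 5.35% held one. The left end of region 2 held a peak of Smc1a replicate 1 alone, from 124809367 to 124810439 (score 437.93).

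With only the 75% of each list with the highest scores, the strips at the left ends of regions 2 and 8 were still covered in both WT and neither KO library. The strip of region 4 was then covered in WT replicate 2 alone, and the strip of region 5 in no library. The Smc1a site at region 8 was still called in both replicates with that threshold, but the site at region 4 was called in replicate 2 alone. With equal numbers of peaks per list both sites were called in replicate 2 alone.

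Peaks of a single Smc1a replicate made up the rest. At the Cd8 window 4 merged regions came from replicate 1 alone and 10 from replicate 2 alone, and at the Cd4 window 3 and 1. No genome share was taken for these counts. Replicate 1 had more peaks in all (25484 against 17726), but fewer at the Cd8 window (25 against 29). At the Cd4 window, the replicate 1 peak from 124812681 to 124815783 (score 410.69) lay inside region 2 and was wholly covered in all 4 H3K27ac libraries. The replicate 1 peak from 124806235 to 124807872 (score 477.81) lay 1318 bp outside the nearest acetylated peak. The Jaccard index of the Smc1a replicates was 0.687 at the Cd8 window and 0.477 at the Cd4 window, against 0.445 in the genome.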

How the data were processed

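Per the submitters' processing notes, alignment used Bowtie 0.12.8 and mm9. Each deposited peak has its position and a score, a value that the authors' peak caller assigned. Peaks carry MACS names and each list holds 1 library, per the file contents. Caller version, settings and matched inputs are unknown (not given in the sources used here). Input libraries (5) were not analysed here.

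Peaks of the 4 H3K27ac lists that overlapped or touched were merged into regions. A region counted as called in a library from 1 bp of overlap. Regions wholly inside a window were counted, and covered length was clipped at window edges. Smc1a sites were merged peaks with a peak of both replicates. Tiles needed a peak of each H3K27ac library. No interval was identical between libraries of a target. Covered length, share and peak number were compared by exact permutation (two-sided) of the 4 libraries. With 2 libraries in a group, counts of regions and sites have no test. Coordinates count from 1. Software was scipy 1.17.1, pandas 2.3.3, numpy 2.4.6 and matplotlib 3.10.9 under Python 3.11.15, and interval functions were tested on simulated data.

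Named items were every region not called in all 4 libraries, the 3 longest regions of each window, every region with a Smc1a site and every such site. Regions outside that rule and the strips of at least 500 bp were chosen after their values were seen, as were the 25% and 9000 bp limits for dense tiles and long regions. The windows, members and lists were chosen with earlier results of these data known. Alternatives were equal numbers of peaks per list, a score threshold (upper 75% kept), a 50% overlap, merging within 1000 bp, windows widened by 20000 bp, each library left out and the replicate number as a block.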

Additional observations from a re-analysis of the deposited data

How the results depend on the processing

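Of 114 alternatives run on 16 results, 102 kept their direction, or stayed within 1.5 times for counts. The KO minus WT difference in covered length was below 0 in every alternative run, from -10500.5 to -3773.5 bp at the Cd8 window and from -14961.0 to -7878.0 bp at the Cd4 window with 1 library left out. With libraries left out the share of covered length differed by -0.0357 to 0.0092 percentage points at the Cd8 window, turning above 0 without WT replicate 2, and by -0.0245 to -0.0189 at the Cd4 window. The replicate numbers are shared by the genotypes but the labels do not say that they pair mice. With the replicate block the differences are the same by construction, -7137.0 and -11419.5 bp, and the sign-flip permutation p is 0.500, the smallest that 2 pairs allow. Deviations of replicates with the same number from their group means correlated at 0.232 over 5769 tiles.

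Regions called in both WT and missing from a KO library numbered 1 at the Cd8 window and 2 at the Cd4 window. They were 0 at the Cd8 window with peaks within 1000 bp merged and 0 to 2 with a library left out. At the Cd4 window they were 0 with the score threshold, 0 with equal numbers of peaks, 0 with peaks within 1000 bp merged, and 2 to 5 with a library left out, the 5 without WT replicate 2. Regions with a KO peak and no WT peak were 0 to 2 at the Cd4 window, the 2 without WT replicate 1, and regions with both KO below both WT were 3 to 5, the 5 (of 6 regions) without WT replicate 2. Fewer lists then have to agree. With a single Smc1a list the sites numbered 25 to 29 at the Cd8 window and 8 to 11 at the Cd4 window, since each peak then counts. The cause of the other changes was not tested. The alternative limited to regions called in at least 2 libraries was chosen after seeing the data and changed no direction. The alternatives for counts of regions with both KO below both WT, and for the tile shares in covered length, were not planned either. The lists hold no reads, so what depth limits could not be measured.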
